A study of Mus musculus with 33 samples.

Results

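Basophil and mast cell genes were followed through RNA sequencing libraries of progenitors and precursors that had been sorted out of mouse bone marrow. The set holds 10 genes of the 54752 features in the deposited count table: Prss34, Mcpt8, Cpa3, Fcer1a, Hdc, Gata2, Gzmb, Cyp11a1, Slc22a3 and Slc45a3. They were chosen by symbol, and all 10 matched a row. The study compared the early steps of the neutrophil and monocyte paths, and the effect of sepsis on the progenitors. Its 33 libraries form 11 groups of 3, described as biological replicates. In 4 groups the mice had mid-grade caecal ligation and puncture (CLP), a surgical model of abdominal sepsis, and were studied on day 3: septic Ly6C- GMP (granulocyte-monocyte progenitors without the surface antigen Ly6C), septic proNeu1, septic proNeu2 and septic preNeu, which are successive neutrophil precursors. The 7 other groups came from wild-type mice without CLP: proNeu1, proNeu2, preNeu, cMoP (common monocyte progenitor), TpMo (transitional pre-monocyte), Ly6Chi monocytes and the Ly6C- GMP from which the paths start. Strain and age are not given in the sources used here, nor is sham surgery of the controls. Sorted cells were pooled as bulk RNA, so fewer cells of a type and less RNA per cell cannot be told apart in any value below.

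A library held 5.52 to 40 Mcounts (megacounts), and the 5 shallow ones held at most 6.78 Mcounts. These were septic proNeu1 replicate 1, septic preNeu replicate 3, Ly6Chi monocyte replicate 2, proNeu1 replicate 1 and preNeu replicate 3. Marker sums were set beside the labels of the sorts. A list of 10 neutrophil granule and precursor genes summed to 82616 to 86746 CPM (counts per megacount) in proNeu1 and to 44200 to 53705 CPM in Ly6C- GMP. In septic mice it summed to 33938 to 38595 CPM in proNeu1 and to 25803 to 29490 CPM in Ly6C- GMP. The neutrophil sum was thus higher in proNeu1 than in GMP within each condition, but septic proNeu1 lay below control Ly6C- GMP. A list of 8 monocyte genes, 7 of them found in the table, summed to 8649 to 9112 CPM in cMoP and to 628 to 884 CPM in Ly6C- GMP. In control proNeu1 the monocyte sum was 1794 to 2682 CPM. Xist, transcribed in female cells, was at 0 to 1.40 CPM in cMoP, TpMo and Ly6Chi monocytes and at 153 to 587 CPM in every other group. The Y-linked Ddx3y was at 68.8 to 98.6 CPM in those 3 monocyte-path groups and did not exceed 0.725 CPM elsewhere, so path and sex of the animals cannot be told apart between them.

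Basophils and mast cells are granulocytes that bind IgE through a shared high-affinity receptor and store histamine and proteases in their granules. In mouse bone marrow, basophils arise from progenitors within or close to the GMP compartment, and their precursors depend on the transcription factor GATA2. Of the genes described here, Prss34 and Mcpt8 encode serine proteases typical of mouse basophils, Cpa3 encodes carboxypeptidase A of mast cell and basophil granules, and Gzmb encodes granzyme B, a protease best known from cytotoxic lymphocytes. Fcer1a encodes the IgE-binding alpha chain of the receptor. Hdc encodes histidine decarboxylase, the enzyme that makes histamine, and is also known from myeloid progenitors and neutrophil precursors of the mouse. Cyp11a1 encodes the enzyme that starts steroid synthesis from cholesterol. Slc22a3 encodes an organic cation transporter that carries histamine, and Slc45a3 encodes another solute carrier.

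All 10 genes had their highest mean level in control Ly6C- GMP, and 9 of them had their next highest in septic Ly6C- GMP. Together they made up 0.0426 to 0.120% of the counts in septic Ly6C- GMP and 0.902 to 1.29% in control Ly6C- GMP. In control Ly6C- GMP the mean levels were 7102 ± 1433 CPM for Prss34, 1182 ± 225 CPM for Cpa3, 943 ± 31.0 CPM for Hdc and 833 ± 212 CPM for Mcpt8 (SD, n = 3 here and throughout). The other 6 genes were Gata2 at 222 ± 84.7 CPM, Fcer1a at 151 ± 22.1 CPM, Slc22a3 at 89.3 ± 17.9 CPM, Cyp11a1 at 57.9 ± 12.2 CPM, Slc45a3 at 57.6 ± 19.0 CPM and Gzmb at 13.9 ± 7.43 CPM. Per kilobase of exon, which allows genes to be compared, Prss34 was at 5822 ± 1174 CPM per kb in these cells. Mcpt8 followed at 835 ± 213, Cpa3 at 779 ± 148, Fcer1a at 151 ± 22.2 and Hdc at 148 ± 4.85 CPM per kb, so that the long transcript of Hdc lay near Fcer1a once length was counted.

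**Figure D1:**
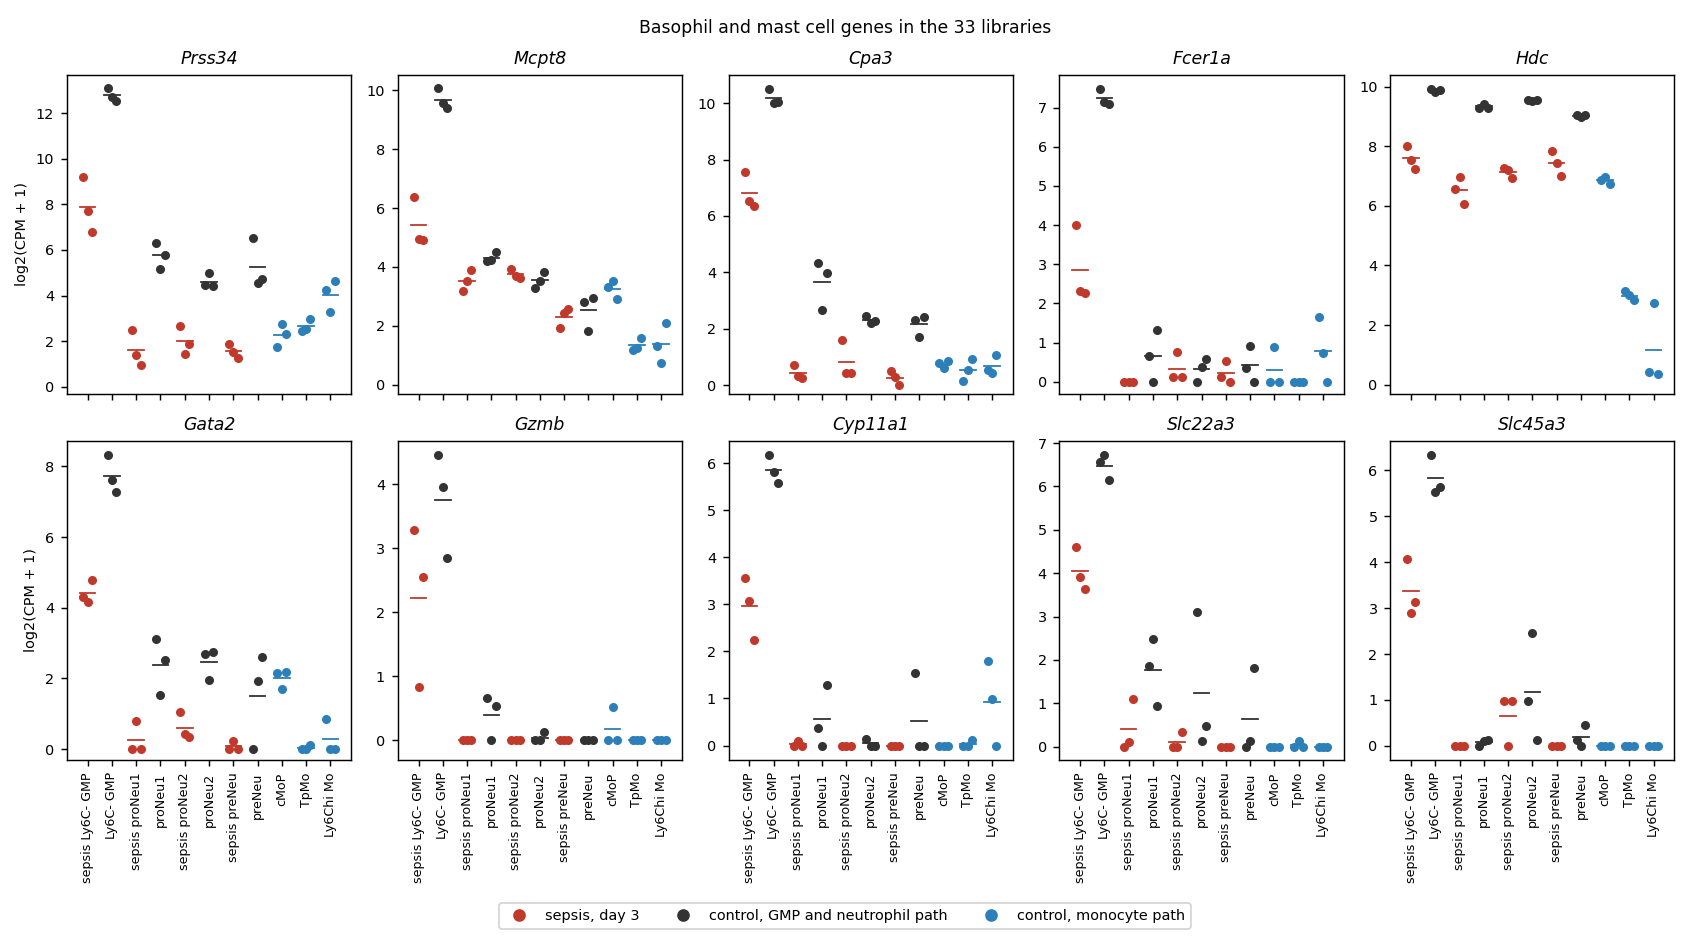
Level of each of the 10 genes in the 33 libraries, as log2(CPM + 1), with 1 point per library and a bar at the mean of the 3 libraries of a group. Red marks sepsis, black the control GMP and neutrophil path and blue the control monocyte path. The mean of control Ly6C- GMP stands highest in all 10 panels, with overlapping points of septic Ly6C- GMP for Gzmb, and Hdc stays high in proNeu1, proNeu2 and preNeu.

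Most granule protease genes of mast cells outside the set were close to absent. Of 10 further granule protease genes, Mcpt1, Mcpt2, Mcpt4, Mcpt9, Cma2 and Tpsg1 had 0 counts in both GMP groups. The tryptase gene Tpsb2 was at 0 CPM in septic and 0.409 ± 0.287 CPM in control Ly6C- GMP, and Tpsab1 at 0.0236 ± 0.0409 CPM in septic and 0 in control Ly6C- GMP. The chymase gene Cma1 was at 1.92 ± 2.90 CPM in septic and 3.00 ± 0.961 CPM in control Ly6C- GMP. Prss57, a serine protease gene that neutrophil precursors also express, was the exception at 465 ± 13.1 CPM in septic and 305 ± 35.6 CPM in control Ly6C- GMP, and neither it nor Cma1, the 2 that could be tested, was called between septic and control. The set was thus abundant in Ly6C- GMP while proteases that define mature mast cells were at or near 0.

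The promoters of the genes were read from RefSeq for GRCm38.p6, as 300 bases that run from 250 before to 50 after the transcription start. All 10 genes had an entry, with 13 start sites among them. A GATA motif (the letters AGATAA, or the same with T first, with G last or with both, on either strand) lay in 6 of the 13 promoters, against 29.8% of 32851 mouse promoters of the same length. The RUNX motif TGTGGT lay in 5 of 13 against 16.8% of all promoters. The C/EBP motif TTNNGNAA lay in 4 of 13 against 40.7%, the STAT motif TTCNNNGAA in 1 of 13 against 8.30%, and the E-box CANNTG in 10 of 13 against 72.3%. C/EBP, STAT and E-box motifs were searched on both strands, as was RUNX, and matches to different motifs could overlap. The sequences shown are those of the 3 genes with a GATA motif nearest to their start and, for comparison, that of Mcpt8, which held none in this window. Each is written 5′ to 3′ on the strand of the gene, with the GATA motif in capitals. Prss34 lies at chr17:25298144-25298443 on the plus strand, and Cpa3 at chr3:20242132-20242431, Fcer1a at chr1:173227180-173227479 and Mcpt8 at chr14:56085148-56085447 on the minus strand.
Prss34: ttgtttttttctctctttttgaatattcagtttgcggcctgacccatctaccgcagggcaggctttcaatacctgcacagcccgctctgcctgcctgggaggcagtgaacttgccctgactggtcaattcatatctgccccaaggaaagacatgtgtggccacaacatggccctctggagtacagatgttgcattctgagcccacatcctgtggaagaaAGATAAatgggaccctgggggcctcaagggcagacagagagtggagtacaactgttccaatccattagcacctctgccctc
Cpa3: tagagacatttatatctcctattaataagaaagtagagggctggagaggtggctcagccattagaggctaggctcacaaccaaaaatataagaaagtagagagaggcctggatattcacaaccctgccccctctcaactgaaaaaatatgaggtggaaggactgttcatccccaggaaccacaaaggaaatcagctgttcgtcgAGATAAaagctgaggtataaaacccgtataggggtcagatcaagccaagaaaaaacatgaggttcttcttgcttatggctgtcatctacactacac
Fcer1a: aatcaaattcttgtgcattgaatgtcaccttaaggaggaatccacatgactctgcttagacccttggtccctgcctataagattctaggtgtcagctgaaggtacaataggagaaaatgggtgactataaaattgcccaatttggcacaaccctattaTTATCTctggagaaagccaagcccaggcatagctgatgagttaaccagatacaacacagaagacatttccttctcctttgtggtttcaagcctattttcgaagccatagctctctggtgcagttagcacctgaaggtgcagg
Mcpt8: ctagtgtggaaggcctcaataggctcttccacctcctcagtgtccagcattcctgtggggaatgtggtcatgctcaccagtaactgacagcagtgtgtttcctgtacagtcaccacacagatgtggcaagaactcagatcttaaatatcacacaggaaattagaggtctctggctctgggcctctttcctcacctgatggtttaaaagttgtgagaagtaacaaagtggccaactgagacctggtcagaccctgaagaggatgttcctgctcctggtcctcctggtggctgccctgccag

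The motif starts 31 bases before the transcription start in Prss34, 46 in Cpa3 and 92 in Fcer1a, where it lies on the opposite strand. In Hdc, and at the second start sites of Cyp11a1 and Slc45a3, it lies 221, 231 and 227 bases before the start. A match to these letters describes the sequence and does not show that a factor binds there.

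Nearly the whole set was lower in proNeu1 and in cMoP, the first sorted populations of the 2 paths, than in Ly6C- GMP. In proNeu1 against Ly6C- GMP, 8 of the 10 genes were lower and none higher (edgeR quasi-likelihood test with Benjamini-Hochberg adjusted p under 0.05), where 2.45% of the 18198 genes tested were called lower and 3.59% higher. In cMoP against Ly6C- GMP all 10 were lower, where 7.96% of all genes were called lower and 9.22% higher. Here proNeu1 and cMoP were both set against the same 3 control GMP libraries, which also serve as the control in sepsis. The median log2 fold change of the 10 genes was -5.92 in proNeu1 and -9.85 in cMoP, beside medians over all genes of 0 and -0.0027. The filter on low counts lets a gene pass through a single group, here Ly6C- GMP, so these counts and medians are descriptions.

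Among the proteases, Prss34 was at 78.1, 35.0 and 54.4 CPM in the 3 proNeu1 libraries, against 8677, 6753 and 5876 CPM in the 3 Ly6C- GMP libraries. The groups lay far apart, with a log2 fold change of -6.88 ± 0.65 (SE, adjusted p = 1.59e-08). In cMoP, Prss34 was at 2.31, 5.82 and 4.02 CPM (log2 fold change -10.75 ± 0.77, adjusted p = 3.38e-11). The carboxypeptidase gene Cpa3 showed the same order, with 19.2, 5.39 and 14.6 CPM in proNeu1 and 0.743, 0.539 and 0.804 CPM in cMoP, against 1441, 1036 and 1068 CPM in Ly6C- GMP. Its log2 fold changes were -6.42 ± 0.49 in proNeu1 (adjusted p = 3.41e-10) and -10.68 ± 0.62 in cMoP (adjusted p = 4.50e-13). Mcpt8 fell to 17.3, 17.7 and 21.7 CPM in proNeu1 and to 8.995, 10.6 and 6.61 CPM in cMoP, against 1073, 758 and 669 CPM in Ly6C- GMP. Both changes were called, at -5.33 ± 0.40 (adjusted p = 2.73e-10) and -6.54 ± 0.43 (adjusted p = 5.78e-12). Gzmb had 22 counts in all proNeu1 libraries together and 8 in cMoP, against 948 in Ly6C- GMP, and passed the test in cMoP (log2 fold change -6.53 ± 1.65, adjusted p = 0.0113) but not in proNeu1 (-5.28 ± 1.55, adjusted p = 0.0579). The cMoP change of Gzmb was -5.92 without cMoP replicate 1 and -10.95 without replicate 2. Replicate 2 held all 8 cMoP counts, so -10.95 is set by the fit and does not measure a size.

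The receptor gene Fcer1a was at 0.590, 0 and 1.501 CPM in proNeu1 and at 0, 0.862 and 0 CPM in cMoP, against 177, 140 and 137 CPM in Ly6C- GMP. It thus had no count in 3 of these 6 progenitor libraries, and both falls were called (log2 fold change -7.51 ± 1.30, adjusted p = 0.00046 in proNeu1, and -9.03 ± 1.42, adjusted p = 5.47e-05 in cMoP). The sizes rest on few counts: the proNeu1 change was -6.88 without proNeu1 replicate 2 and -9.80 without replicate 3. The cMoP change was -8.38 without cMoP replicate 1 and -14.39 without replicate 2. All cMoP counts lay in replicate 2, so -14.39 is set by the fit and does not measure a size. The transcription factor gene Gata2 was at 4.76 ± 2.89 CPM in proNeu1 and 3.08 ± 0.706 CPM in cMoP, against 222 ± 84.7 CPM in Ly6C- GMP (-5.49 ± 0.89, adjusted p = 0.000121, and -6.13 ± 0.91, adjusted p = 1.38e-05). Cyp11a1, Slc22a3 and Slc45a3 had 0 counts in all 3 cMoP libraries. With a floor of 3 counts over the group they were at least 1158-fold, 1801-fold and 1144-fold lower in cMoP than in Ly6C- GMP. In proNeu1 the same 3 genes had 60, 175 and 6 counts, against 3935, 6123 and 3888 in Ly6C- GMP, and all were called lower, with adjusted p-values of 0.00804, 0.0229 and 0.000309. The call of Slc22a3 was the least stable, since it was lost in 7 of 13 alternatives, among them the fits without Ly6C- GMP replicate 1 or 2 (adjusted p = 0.0584 and 0.0639) and without proNeu1 replicate 1 or 3 (adjusted p = 0.0807 and 0.103); without proNeu1 replicate 2 its change was -5.65, against -4.92 with all libraries. The change of Cyp11a1, -6.35 with all libraries, was -5.74 without proNeu1 replicate 2 and -9.33 without replicate 3.

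Hdc had another course. It was at 628, 683 and 630 CPM in proNeu1, against 975, 914 and 941 CPM in Ly6C- GMP, a difference without overlap between the libraries that did not pass the test (log2 fold change -0.42 ± 0.35, adjusted p = 0.600). It was at 748 ± 11.6 CPM in proNeu2 and 522 ± 16.0 CPM in preNeu, and neither step was called (adjusted p = 0.739 for proNeu2 over proNeu1 and 0.576 for preNeu over proNeu2). Hdc thus stayed abundant along the neutrophil path. On the monocyte path Hdc fell to 115 ± 8.31 CPM in cMoP (-3.00 ± 0.38, adjusted p = 1.14e-06 against Ly6C- GMP). It was lower again in TpMo, at 6.96 ± 0.842 CPM against 115 CPM in cMoP (-3.85 ± 0.41, adjusted p = 6.09e-08). In Ly6Chi monocytes Hdc was at 0.356, 5.64 and 0.272 CPM, against 7.77, 7.02 and 6.09 CPM in TpMo (-2.56 ± 0.52, adjusted p = 0.000509). Replicate 2, a shallow library, was the highest of those 3 monocyte libraries, and without it the change was -4.44; it was -1.90 without replicate 1 and -1.79 without replicate 3. The call was lost when the fit held only these 6 libraries (adjusted p = 0.283).

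Later steps added few calls. In proNeu2 against proNeu1, 1 of 10 genes was lower and none higher, where 1.48% of all genes were lower and 1.57% higher: Cpa3, at 3.99 ± 0.483 CPM in proNeu2 and 13.05 ± 7.02 CPM in proNeu1 (log2 fold change -1.55 ± 0.44, adjusted p = 0.0489). That call was lost in 10 of 13 alternatives, with adjusted p-values up to 0.274; of the libraries left out in turn, the call held only without proNeu1 replicate 2. In preNeu against proNeu2, 1 of 10 was lower and none higher, where 14.7% of all genes were lower and 13.1% higher: Slc45a3, with 4 counts in preNeu and 111 in proNeu2, of which 89 came from replicate 2 (-4.02 ± 1.34, adjusted p = 0.0321). Without that proNeu2 library its adjusted p was 0.245, and it was 0.101 without preNeu replicate 1 and 0.141 without preNeu replicate 2; the change was -4.91 without preNeu replicate 3. The number of genes called in this step was 0 without proNeu2 replicate 2, 2 without preNeu replicate 2 and 4 without preNeu replicate 3. In TpMo against cMoP, 3 of 10 were lower and none higher, where 8.56% of all genes were lower and 9.52% higher. Besides Hdc these were Mcpt8, at 1.55 ± 0.379 CPM in TpMo and 8.72 ± 1.99 CPM in cMoP (-2.28 ± 0.41, adjusted p = 0.000155), and Gata2. Gata2 had 2 counts in TpMo and 187 in cMoP, a 93.8-fold difference with an adjusted p of 0.00187. Its 95% counting interval, from 25.6 to 780, takes each count as independent. Its fitted log2 fold change of -6.11 ± 1.39 was -8.82 without TpMo replicate 3, which held both counts. With no counts left in TpMo, -8.82 does not measure a size.

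Ly6Chi monocytes held more of some of these transcripts than TpMo. The 3 genes called higher, where 7.59% of all genes were, were Prss34, Fcer1a and Cyp11a1; Hdc was the 1 gene called lower, where 13.3% were. Prss34 was at 17.6, 8.62 and 23.7 CPM in Ly6Chi monocytes, against 4.41, 4.74 and 6.92 CPM in TpMo (log2 fold change 1.67 ± 0.56, adjusted p = 0.0335). Every monocyte library was above every TpMo library for Prss34. Fcer1a had 48, 4 and 0 counts in the 3 monocyte libraries and none in TpMo, at least 20.7-fold higher. Cyp11a1 had 56, 6 and 0 counts in the monocytes and 2 counts in TpMo, a 37.0-fold difference. Its counting interval, from 9.83 to 313, takes each count as independent. Neither call was stable: it was lost in 8 of 13 alternatives for Fcer1a and in 10 for Cyp11a1. Without Ly6Chi monocyte replicate 1 the adjusted p-values were 0.411 for Fcer1a and 0.383 for Cyp11a1. Without TpMo replicate 1, 2 or 3 they were 0.0851, 0.0977 and 0.0903 for Fcer1a and 0.135, 0.149 and 0.0699 for Cyp11a1, and without Ly6Chi monocyte replicate 2 the call of Cyp11a1 was lost as well (adjusted p = 0.0615). The call of Prss34 was also lost in 6 alternatives, with adjusted p-values up to 0.128, among them the fits without TpMo replicate 1 or 2 and without Ly6Chi monocyte replicate 1 or 3. The number of genes called was 1 without TpMo replicate 1, TpMo replicate 2 or Ly6Chi monocyte replicate 1, and 2 without TpMo replicate 3.

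Most of the set was lower in Ly6C- GMP of septic mice. In septic against control Ly6C- GMP, 6 of 10 genes were lower and none higher, where 7.42% of all genes were called lower and 10.3% higher. The 6 were Prss34, Mcpt8, Cpa3, Fcer1a, Hdc and Gata2. The median log2 fold change of the 10 was -3.00, beside -0.0073 over all genes. A gene could pass the filter on low counts through control Ly6C- GMP alone, where all 10 were highest, so this count and median are descriptions. Leaving out any 1 of the 6 libraries left the number called at 6.

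Prss34 was at 578, 207 and 109 CPM in the 3 septic libraries, against 8677, 6753 and 5876 CPM in the 3 control libraries (log2 fold change -4.43 ± 0.57, adjusted p = 2.67e-06). Mcpt8 was at 82.3, 29.8 and 29.0 CPM in septic Ly6C- GMP, against 1073, 758 and 669 CPM in control Ly6C- GMP (-4.00 ± 0.38, adjusted p = 1.52e-08). In both genes septic replicate 1 stood above the other septic libraries, and without it the changes were -5.38 and -4.71. Cpa3 was at 190, 91.7 and 80.3 CPM in septic libraries, against 1441, 1036 and 1068 CPM in control libraries (-3.15 ± 0.42, adjusted p = 3.62e-06). Of the proteases, Gzmb alone did not pass, at 8.76, 0.782 and 4.85 CPM in septic libraries and 21.0, 14.6 and 6.19 CPM in control libraries (-1.38 ± 1.28, adjusted p = 0.533), with overlap between the groups.

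Fcer1a was at 14.96, 3.99 and 3.82 CPM in septic libraries, against 177, 140 and 137 CPM in control libraries (log2 fold change -4.17 ± 1.08, adjusted p = 0.00805). The fall was -5.15 without septic replicate 1, again the highest septic library, and DESeq2 did not call it (adjusted p = 0.0833, in a range over the alternatives from 0.000623 to 0.0833). Hdc was at 255, 186 and 149 CPM in septic libraries, against 975, 914 and 941 CPM in control libraries (-2.13 ± 0.37, adjusted p = 0.000106). Gata2 was at 18.6, 16.8 and 26.8 CPM in septic libraries, against 318, 195 and 155 CPM in control libraries (-3.28 ± 0.79, adjusted p = 0.00351). Every septic library lay below every control library in these 3 genes. Cyp11a1, Slc22a3 and Slc45a3 were also lower in every septic library, at means of 7.31 ± 3.50, 16.3 ± 6.33 and 10.03 ± 5.11 CPM in septic Ly6C- GMP, against 57.9 ± 12.2, 89.3 ± 17.9 and 57.6 ± 19.0 CPM in control Ly6C- GMP. Their log2 fold changes of -2.85 ± 1.21, -2.31 ± 1.13 and -2.38 ± 0.96 did not pass the test (adjusted p = 0.113, 0.177 and 0.102), which does not show that they were unaffected. When the fit held only these 6 libraries, 9 of the 10 genes were called.

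**Figure D2:**
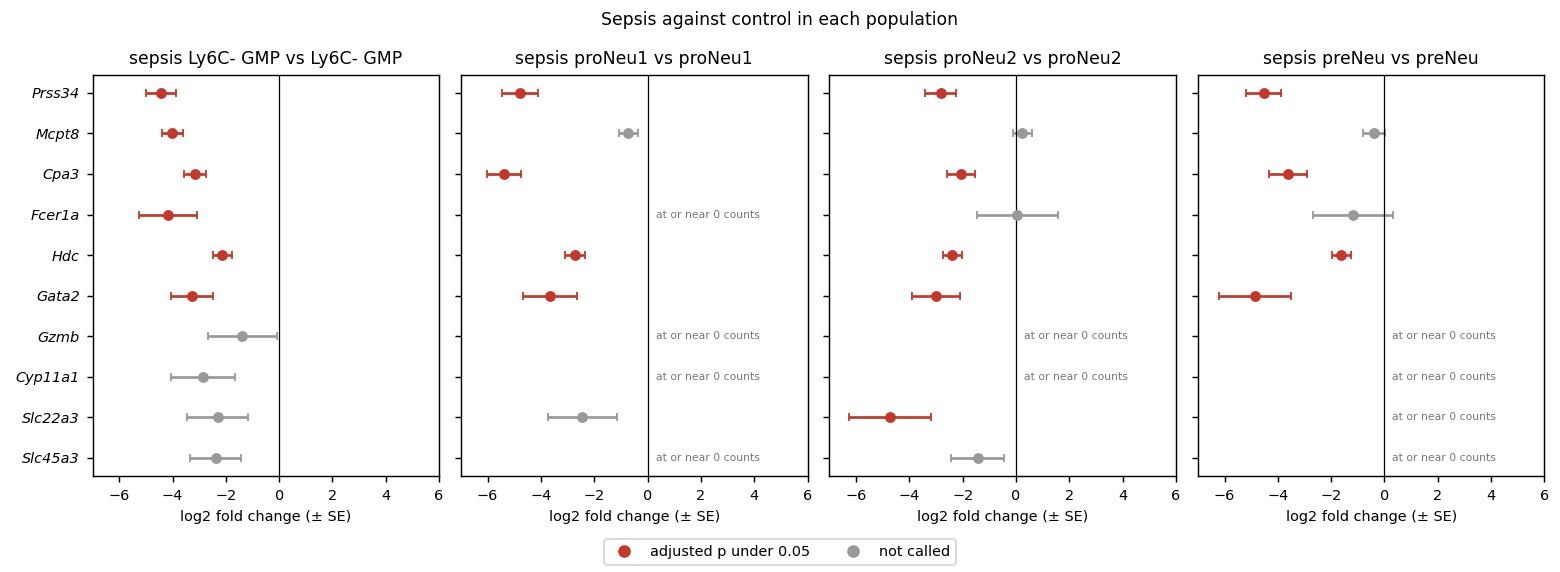
Log2 fold change of sepsis over control for each gene in Ly6C- GMP, proNeu1, proNeu2 and preNeu, with bars of 1 SE from the edgeR fit and red for an adjusted p under 0.05. Genes with 3 counts or fewer in either group have no point. Mcpt8 lies at -4.00 in Ly6C- GMP and between -0.72 and 0.23 in the 3 neutrophil stages, whereas Prss34, Cpa3, Hdc and Gata2 lie below 0 and are called in all 4 panels.

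In the neutrophil precursors, where most of the set was already scarce, 4 genes were lower in all 3 stages of septic mice. In septic proNeu1, 4 of the 10 genes were lower and none higher, where 7.3% of all genes were lower and 8.3% higher. In septic proNeu2, 5 were lower and none higher, where 7.57% of all genes were lower and 9.45% higher. In septic preNeu, 4 were lower and none higher, where 4.21% of all genes were lower and 7.57% higher. Prss34, Cpa3, Hdc and Gata2 made up these calls, joined in proNeu2 by Slc22a3. Prss34 was at 4.67, 1.59 and 0.951 CPM in septic proNeu1, against 78.1, 35.0 and 54.4 CPM in control proNeu1 (log2 fold change -4.79 ± 0.67, adjusted p = 1.17e-05). It was at 3.27 ± 1.92 CPM in septic proNeu2 against 23.9 ± 5.59 CPM in control proNeu2 (-2.82 ± 0.59, adjusted p = 0.000955). In septic preNeu it was at 2.66, 1.88 and 1.37 CPM, against 89.6, 22.7 and 25.6 CPM in control preNeu (-4.53 ± 0.65, adjusted p = 1.91e-05), and without the high control preNeu replicate 1 the change was -3.52.

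Cpa3 had 15 counts in septic and 855 in control proNeu1 (log2 fold change -5.39 ± 0.65, adjusted p = 1.63e-06), and 15 in septic and 162 in control preNeu (-3.63 ± 0.71, adjusted p = 0.00075). The preNeu value was -4.34 without septic preNeu replicate 1. In proNeu2 Cpa3 was at 2.04, 0.346 and 0.349 CPM in septic libraries, against 4.53, 3.60 and 3.83 CPM in control libraries (-2.06 ± 0.53, adjusted p = 0.00648). Septic proNeu2 replicate 1 was the high library there: without it the change was -3.47, and without septic replicate 3 the adjusted p was 0.0549. Hdc was at 94.9 ± 29.1 CPM in septic and 647 ± 31.4 CPM in control proNeu1 (-2.71 ± 0.38, adjusted p = 1.09e-05). It was at 141 ± 15.8 CPM in septic and 748 ± 11.6 CPM in control proNeu2 (-2.39 ± 0.37, adjusted p = 3.19e-05), and at 176 ± 50.02 CPM in septic and 522 ± 16.0 CPM in control preNeu (-1.62 ± 0.36, adjusted p = 0.00287). No septic library overlapped the controls of its stage.

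Gata2 had 20 counts in septic and 290 in control proNeu1, 36 and 289 in septic and control proNeu2, and 4 and 92 in septic and control preNeu. Its log2 fold changes of -3.67 ± 1.00, -3.02 ± 0.90 and -4.86 ± 1.34 passed the test (adjusted p = 0.0117, 0.0186 and 0.0157). All 20 counts in septic proNeu1 came from replicate 2, without which the change was -9.44. That fit had no counts left in septic proNeu1, so -9.44 does not measure a size. The proNeu1 call was lost without septic replicate 3 (adjusted p = 0.0732). The proNeu2 call was lost without septic replicate 2 or 3 (adjusted p = 0.0792 and 0.0914), and without septic replicate 1 the change was -3.92. The preNeu call was lost without septic replicate 1 (adjusted p = 0.0871) or control replicate 2 (adjusted p = 0.0675). The preNeu change was -5.55 without control replicate 1, -4.26 without control replicate 3 and -8.79 without septic replicate 2. Septic replicate 2 held all 4 septic preNeu counts, so -8.79 likewise does not measure a size. The proNeu2 call of Slc22a3, at 6 counts in septic and 170 in control libraries (-4.73 ± 1.54, adjusted p = 0.0377), rests on control replicate 1, which held 160 of the 170: without it the change was -1.33 (adjusted p = 0.659). It was also lost without septic proNeu2 replicate 1 or 2 (adjusted p = 0.125 and 0.124). The change was -8.81 without septic replicate 3, which held all 6 septic counts, so that size too is set by the fit. The number of genes called in septic proNeu2 was 3 without septic replicate 2 or 3.

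Mcpt8 was not called in any of the neutrophil stages. It was at 8.09, 10.5 and 13.9 CPM in septic proNeu1, against 17.3, 17.7 and 21.7 CPM in control proNeu1 (log2 fold change -0.72 ± 0.36, adjusted p = 0.185). It was at 14.2, 11.9 and 11.4 CPM in septic proNeu2, against 8.82, 10.4 and 13.1 CPM in control proNeu2 (0.23 ± 0.35, adjusted p = 0.731), and at 2.79, 4.38 and 4.98 CPM in septic preNeu, against 6.06, 2.51 and 6.71 CPM in control preNeu (-0.38 ± 0.41, adjusted p = 0.630). The groups overlapped in proNeu2 and preNeu but not in proNeu1. A test of whether the 4 sepsis effects differ among the populations was passed by Mcpt8 (adjusted p = 6.72e-06), as by 6.34% of all genes, and by no other gene of the set. It held in all 30 alternatives for Mcpt8. The adjusted p-values of the other 9 ran from 0.0986 for Cpa3 to 0.924 for Gata2, which does not show that their effects were equal; without control proNeu1 replicate 2 Cpa3 passed too (adjusted p = 0.0302), which made 2 genes.

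The step from GMP to proNeu1 was also examined within septic mice. In septic proNeu1 against septic Ly6C- GMP, 8 of the 10 genes were lower and none higher, where 0.456% of all genes were called lower and 0.83% higher. This count is a description too, since a gene could pass the filter on low counts through a GMP group alone. Prss34 was at 2.40 ± 1.99 CPM in septic proNeu1 and 298 ± 248 CPM in septic Ly6C- GMP (log2 fold change -7.24 ± 0.71, adjusted p = 1.55e-07). Cpa3 was at 0.357 ± 0.232 CPM in septic proNeu1 and 121 ± 60.2 CPM in septic Ly6C- GMP (-8.66 ± 0.64, adjusted p = 7.70e-10). Mcpt8 was at 10.8 ± 2.91 CPM in septic proNeu1 and 47.0 ± 30.5 CPM in septic Ly6C- GMP (-2.04 ± 0.36, adjusted p = 0.00135). Without septic Ly6C- GMP replicate 1 the changes were -6.29 for Prss34 and -1.34 for Mcpt8. Fcer1a, Gzmb and Slc45a3 had 0 counts in septic proNeu1 and were at least 135-fold, 86.7-fold and 180-fold lower there. Gata2 was called as well (-5.87 ± 1.01, adjusted p = 0.000994), as was Cyp11a1 with 2 counts in septic proNeu1 and 566 in septic Ly6C- GMP. Hdc, at 94.9 ± 29.1 CPM in septic proNeu1 and 197 ± 53.7 CPM in septic Ly6C- GMP, did not pass (-1.002 ± 0.36, adjusted p = 0.243), nor did Slc22a3 with 26 counts in septic proNeu1 and 1273 in septic Ly6C- GMP (adjusted p = 0.0779). The number called was 5 without septic Ly6C- GMP replicate 1, septic proNeu1 replicate 2 or septic proNeu1 replicate 3, with the calls of Fcer1a, Gzmb and Cyp11a1 lost in each of those fits. Over all genes, 234 were called with all libraries and 116, 109 and 135 in those fits, in that order. Gata2, with 20 counts in septic proNeu1, all in replicate 2, was at -11.65 without that library and -5.24 without septic proNeu1 replicate 3. With no counts left in septic proNeu1, -11.65 does not measure a size.

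The proportions among the proteases differed between groups. Per kilobase, Prss34 stood to Mcpt8 at 5.75, 5.66 and 3.09 in septic Ly6C- GMP and at 6.62, 7.29 and 7.19 in control Ly6C- GMP. In proNeu1 the ratio was 0.472, 0.124 and 0.0560 in septic libraries and 3.71, 1.62 and 2.05 in control libraries, so that Mcpt8 was the more abundant transcript in septic and Prss34 in control proNeu1. The same held in proNeu2, with 0.312, 0.119 and 0.190 in septic and 1.95, 2.38 and 1.27 in control libraries. In cMoP the ratio was 0.210, 0.451 and 0.498, and in Ly6Chi monocytes 9.53, 10.6 and 5.95. Prss34 over Cpa3 ran from 1.69 to 3.79 in septic Ly6C- GMP, below the 6.84 to 8.10 of control Ly6C- GMP, but from 6.22 to 9.33 in septic proNeu1, around the 4.64 to 8.07 of control proNeu1. Prss34 alone supplied 25.6 to 48.3% of the summed CPM of the 10 genes in septic Ly6C- GMP and 65.2 to 67.4% in control Ly6C- GMP. These ratios were not tested, and those outside Ly6C- GMP rest on as few as 8 counts of Prss34 and 2 of Cpa3 in a library.

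**Figure D3:**
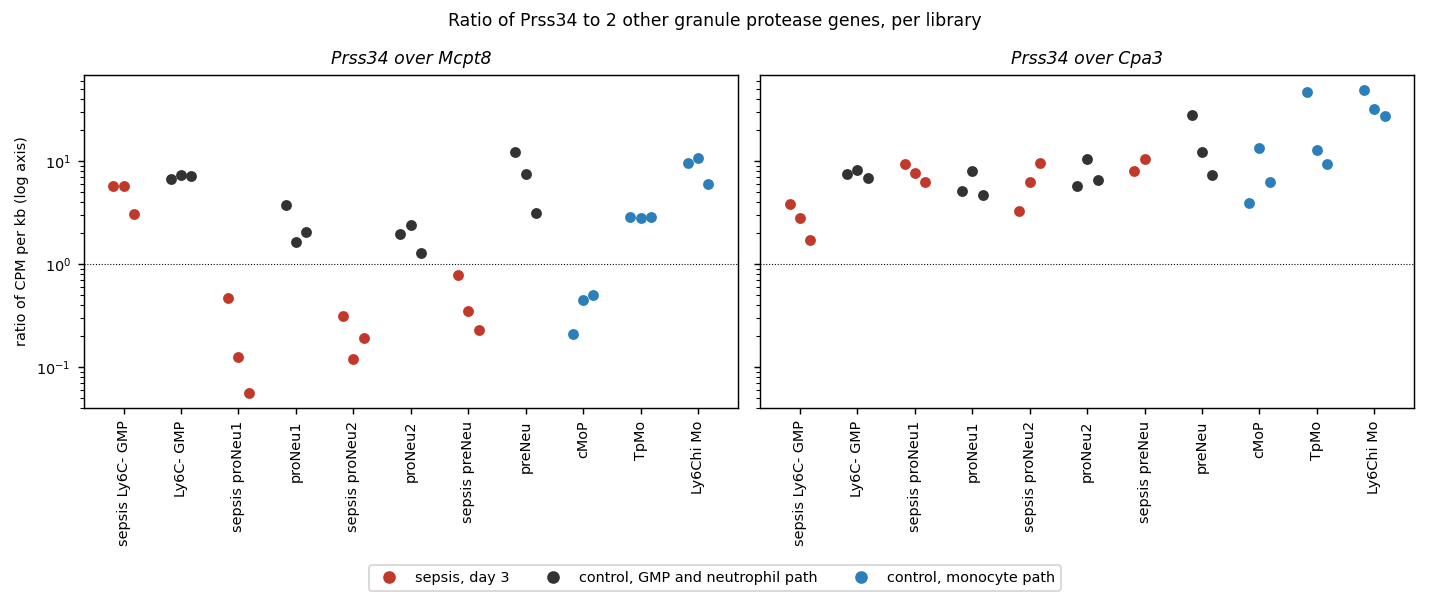
Ratio of Prss34 to Mcpt8 and of Prss34 to Cpa3 in each library, from CPM per kilobase of exon, on a log axis, with a dotted line where both genes are equal. Red marks sepsis, black the control GMP and neutrophil path and blue the control monocyte path; 1 septic preNeu library without Cpa3 counts has no point. Prss34 over Mcpt8 is below the line in septic proNeu1, septic proNeu2, septic preNeu and cMoP and above it in every other group.

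Genes that work with these proteins were counted from wider lists, chosen like the set itself. Of 20 genes of the IgE receptor, its partners and the basophil and mast cell surface, 19 could be tested in Ly6C- GMP, and 8 were lower and 2 higher in sepsis, where 7.42% of all genes were lower and 10.3% higher, with a median log2 fold change of -0.94 beside -0.0073 over all genes. The receptor's beta chain gene Ms4a2 was at 46.2 ± 31.4 CPM in septic and 422 ± 101 CPM in control Ly6C- GMP (log2 fold change -3.04 ± 0.43, adjusted p = 1.08e-05), and its signalling chain gene Fcer1g at 14.3 ± 2.24 CPM in septic and 30.0 ± 3.06 CPM in control Ly6C- GMP (-0.94 ± 0.16, adjusted p = 9.36e-05). The largest falls were in Cd200r3, an activating surface receptor of mouse basophils (2.21 ± 2.60 CPM in septic, 36.4 ± 6.70 CPM in control Ly6C- GMP; -3.89 ± 1.22, adjusted p = 0.0292), and the integrin gene Itgb7 (11.5 ± 5.95 CPM in septic, 113 ± 36.6 CPM in control Ly6C- GMP; -3.16 ± 0.48, adjusted p = 2.35e-05). The higher ones were Csf2rb, the beta chain shared by the receptors of IL-3, IL-5 and GM-CSF, at 454 ± 40.2 CPM in septic and 205 ± 56.5 CPM in control Ly6C- GMP (1.27 ± 0.14, adjusted p = 2.45e-07), and the kinase gene Lyn (0.51 ± 0.16, adjusted p = 0.0255). The beta and signalling chains of the IgE receptor and the shared cytokine receptor chain thus moved in opposite directions. The receptor gene of stem cell factor, Kit, was at 298 ± 75.4 CPM in septic and 496 ± 78.8 CPM in control Ly6C- GMP (-0.61 ± 0.19, adjusted p = 0.0219). The granule membrane gene Cd63 was at 189 ± 18.9 CPM in septic and 730.0 ± 49.5 CPM in control Ly6C- GMP (-1.81 ± 0.29, adjusted p = 3.79e-05).

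Of 16 genes of mediators and their synthesis, 15 were found and 11 tested, with a median of -1.06 in septic against control Ly6C- GMP. Of these, 2 were lower and 1 higher, where 7.42% of all genes were lower and 10.3% higher. The 1 higher is close to the share over all genes. Alox5, the enzyme that starts leukotriene synthesis, was at 27.8 ± 12.5 CPM in septic and 202 ± 58.9 CPM in control Ly6C- GMP (log2 fold change -2.73 ± 0.43, adjusted p = 3.55e-05), and its activating protein gene Alox5ap was lower too (-0.92 ± 0.15, adjusted p = 5.66e-05). Ptgs1, a cyclooxygenase of prostaglandin synthesis, was higher, at 113 ± 21.0 CPM in septic and 31.5 ± 4.32 CPM in control Ly6C- GMP (1.96 ± 0.36, adjusted p = 0.00026). These 3 were the only genes of the list called, and Ltc4s, another gene of leukotriene synthesis, had too few counts to be tested. The cytokine gene Il4 was at 0.491 ± 0.334 CPM in septic and 2.16 ± 0.774 CPM in control Ly6C- GMP, and Il13 had 0 counts in both. Of 12 transcription factor genes, 5 were lower and 2 higher in septic Ly6C- GMP, with a median of -0.14. Gata1, a relative of Gata2 used by erythroid, megakaryocyte, eosinophil and mast cells, was at 10.1 ± 1.06 CPM in septic and 62.1 ± 19.7 CPM in control Ly6C- GMP (-2.48 ± 0.68, adjusted p = 0.0105), and Ikzf2 was at 28.4 ± 12.2 CPM in septic and 171 ± 38.7 CPM in control Ly6C- GMP (-2.46 ± 0.63, adjusted p = 0.00662). Nfil3 and Bhlhe40 were the higher ones, Nfil3 at 30.4 ± 11.2 CPM in septic and 3.92 ± 0.371 CPM in control Ly6C- GMP (3.08 ± 0.45, adjusted p = 1.24e-05).

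The same lists were counted at entry into the paths. In proNeu1 against Ly6C- GMP, 5 of the 19 receptor and surface genes tested were lower and none higher, where 2.45% of all genes were lower and 3.59% higher, led by Ms4a2 at 7.59 ± 2.17 CPM in proNeu1 and 422 ± 101 CPM in Ly6C- GMP (log2 fold change -5.70 ± 0.49, adjusted p = 9.57e-09) and Cd200r3 (-4.99 ± 1.29, adjusted p = 0.0209). The median log2 fold change was -0.73 over those 19 genes and -5.92 over the 10, a difference that was not tested. Among mediator genes 5 were lower and 1 higher, and among transcription factor genes 4 were lower, led by Ikzf2 (-4.13 ± 0.69, adjusted p = 0.000179), and 1 higher. In cMoP, 8 of the 19 receptor and surface genes were lower and 6 higher than in Ly6C- GMP, where 7.96% of all genes were lower and 9.22% higher. Ms4a2 fell to 1.63 ± 0.410 CPM in cMoP (-7.98 ± 0.55, adjusted p = 5.23e-11), while Fcer1g, a chain that monocytes share with other Fc receptors, was at 116 ± 14.3 CPM in cMoP and 30.0 ± 3.06 CPM in Ly6C- GMP (1.99 ± 0.16, adjusted p = 3.68e-10).

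**Figure D4:**
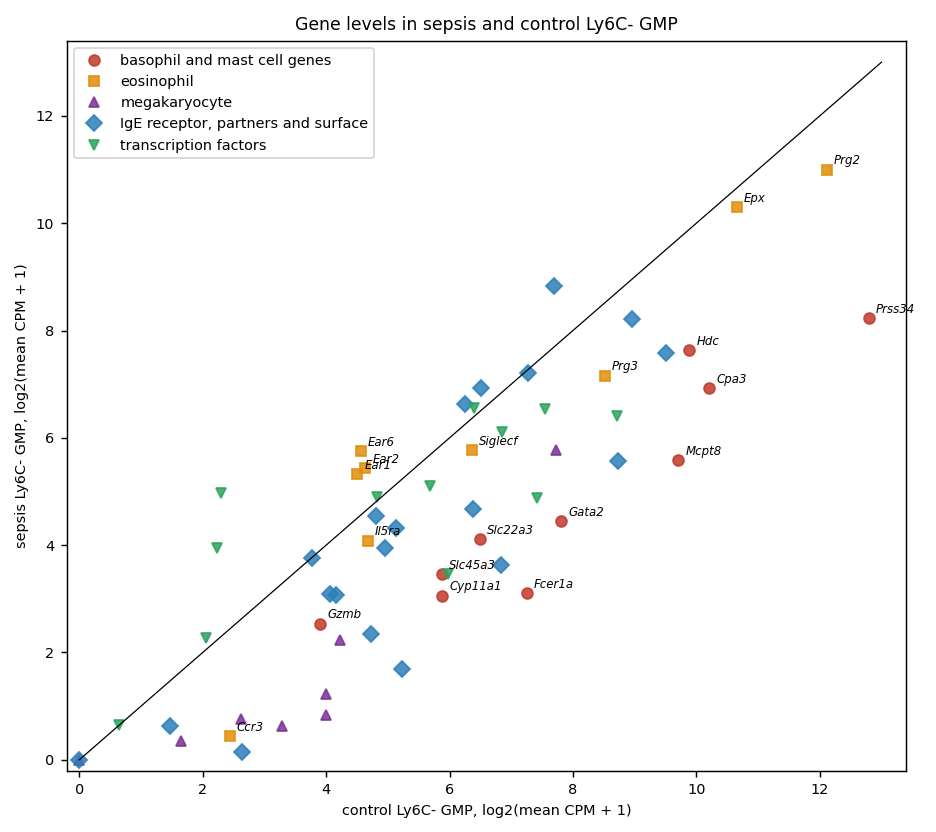
Mean level in septic (vertical) against control Ly6C- GMP (horizontal), as log2(mean CPM + 1), for the 10 genes and 4 other lists, with a line of equal levels. The 10 genes all lie under the line, and the abundant eosinophil genes Prg2 and Epx lie nearer to it than Prss34, Mcpt8 and Cpa3.

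Markers of several other cell types were lower in septic Ly6C- GMP as well, and their part in the result was not tested. Over all genes, 7.42% were called lower and 10.3% higher in this comparison, which applies to each list below. A count of 1 gene in a list cannot be set apart from these shares. Of 9 eosinophil genes, none was lower and 1, Ear6, was higher in septic than in control Ly6C- GMP. Their summed level ran from 2562 to 4672 CPM in septic and from 4912 to 9074 CPM in control Ly6C- GMP, with Prg2 at 2043 ± 646 CPM in septic and 4437 ± 1470 CPM in control Ly6C- GMP (log2 fold change -0.98 ± 0.41, adjusted p = 0.105). The eosinophil genes were thus present in both GMP groups while Prss34 and Mcpt8 were low in the septic one. In proNeu1, 7 of the 9 eosinophil genes were lower than in Ly6C- GMP, where 2.45% of all genes were. Megakaryocyte and erythroid genes were scarcer than eosinophil genes in both GMP groups. Of 8 megakaryocyte genes, 4 of the 7 tested were lower in septic Ly6C- GMP, and the 8 summed to 53.3 to 66.3 CPM in septic and 239 to 314 CPM in control Ly6C- GMP, with Gp1bb at 0 in both. Itga2b alone supplied most of these sums, with means of 54.0 CPM in septic and 211 CPM in control Ly6C- GMP. Of 8 erythroid genes, 4 were lower, with sums of 47.6 to 62.6 CPM in septic and 140 to 218 CPM in control Ly6C- GMP. B lineage genes summed to 42.9 to 84.6 CPM in septic and 767 to 984 CPM in control Ly6C- GMP, with 3 of 7 tested genes lower and Pax5 at 0 in the septic libraries. In proNeu1 the B lineage sum was 3308 to 6057 CPM, with Ighm at 3326 ± 1023 CPM. Of 10 stem and early progenitor genes, 2 were lower in septic Ly6C- GMP, with sums of 705 to 802 CPM in septic and 1199 to 1408 CPM in control Ly6C- GMP. Among T and NK cell genes, which bear on Gzmb, Cd3e, Cd3g, Ncr1 and Eomes had 0 counts in both GMP groups, and 1 of 3 tested genes was lower in sepsis, with sums of 252 to 291 CPM in septic and 622 to 872 CPM in control Ly6C- GMP. Of the 11 genes of this list, 5 had 0 counts in septic and 6 in control Ly6C- GMP. The sum was 1147 to 1525 CPM in control proNeu2, where 8 of the 11 had 0 counts. The sum thus rests on few genes and does not show T or NK cells. Of 6 plasmacytoid dendritic cell genes, 1 of 3 tested was lower, with sums of 55.8 to 66.7 CPM in septic and 107 to 111 CPM in control Ly6C- GMP. Neutrophil genes, 1 higher and 3 lower of 10, summed to 25803 to 29490 CPM in septic and 44200 to 53705 CPM in control Ly6C- GMP. Monocyte genes, 1 higher and 2 lower of 7, summed to 995 to 1589 CPM in septic and 628 to 884 CPM in control Ly6C- GMP. Kit, Tal1 and Gzma each stand in 2 of these lists.

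Across the 11 group means, as log2(CPM + 1), 9 of the 10 genes followed each other, with Pearson correlations from 0.847 to 0.989 over their 36 pairs. Hdc stood apart, with correlations from 0.300 to 0.621 with the other 9. These correlations describe 11 points that share libraries between genes. Any genes high in the GMP groups and low elsewhere would correlate in this way. Among 8043 other genes that reached 20 CPM in a group mean, the 5 most like the mean profile of the set were Fgf3 (r = 0.994), Scin (r = 0.990), Angpt1 (r = 0.986), Itga2b (r = 0.978) and Rnase12 (r = 0.978). Fgf3 was at 7.19 CPM in septic and 72.2 CPM in control Ly6C- GMP, and at no more than 1.60 CPM in any other group mean. Angpt1 was at 8.52 CPM in septic and 103 CPM in control Ly6C- GMP, and at no more than 3.09 CPM elsewhere. The genes most like Hdc were Atxn1 (r = 0.980) and Cd81 (r = 0.975). Cd81, which encodes a tetraspanin of the cell membrane, was at 200.1 CPM in septic and 468 CPM in control Ly6C- GMP and as high as 623 CPM in another group.

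The genes lie on 7 chromosomes of GRCm38, and Mcpt8 and Gzmb lie in the same chymase cluster. Mcpt8 spans chr14:56082166-56085273 and Gzmb chr14:56258838-56262260, both on the minus strand and 173564 bases apart, with 13 annotated features between them. Ctsg, the gene of the neutrophil protease cathepsin G, lies between them and had another pattern. It was at 2048 ± 76.7 CPM in proNeu1, where Mcpt8 was at 18.9 ± 2.47 CPM, and at 1859 ± 200.1 CPM in septic Ly6C- GMP, against 1435 ± 40.2 CPM in control Ly6C- GMP. The granzyme genes Gzmd, Gzme, Gzmf, Gzmg and Gzmn of the same interval had 0 counts in both GMP groups. Whether counting used the strand of the reads is not stated, and exons of Slc22a3 overlap those of Plg on the opposite strand, which was at 0.724 CPM in control Ly6C- GMP. Cyp11a1 shares exons with Gm17322 and Slc45a3 with Gm29103 on the same strand, and both of these had 0 CPM in control Ly6C- GMP.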

How the data were processed

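Full-length cDNA libraries (SMART-Seq v2) were sequenced from sorted cells, and the deposited table holds raw counts per gene and library that the authors made with STAR and featureCounts on GRCm38, per the submitters' processing notes. Versions, strand setting and handling of read pairs are not given in the sources used here; among counts of 1 to 10, 76.2% were even numbers, which counting both mates of each pair would give. From these counts, CPM were computed over column totals, and per kilobase with the exon length in the table. In edgeR 4.0.16 (R 4.3.3, limma 3.58.1), genes were filtered by filterByExpr, scaled by TMM and tested by the robust quasi-likelihood fit over all 33 libraries with group as the only term (18198 genes, 22 residual degrees of freedom, biological coefficient of variation 0.472). Calls needed a Benjamini-Hochberg adjusted p under 0.05 over all genes, and SE are the fold change over the square root of F. Floors of 3 counts over a group, and 95% intervals of count ratios, cover counting error only. The intervals take each count as independent and are too narrow if both mates of a pair were counted. The design text calls the libraries biological replicates without naming animals or cultures.

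The genes and lists were chosen with earlier results of these data known. All 10 genes are named; from other lists, the called genes with the largest rises and falls and those above 100 CPM in a group mean could be named. Genes listed at 0, Tpsb2, Tpsab1, Cma1, Il4, Gp1bb, Pax5, Xist, Ddx3y, Plg and the neighbours of Mcpt8 were named outside that rule, after their values were seen. Likeness is Pearson r with the mean z-score profile over the 11 group means. Alternatives were DESeq2 1.42.0, RLE factors, no filter, a test against a fold change of 1.5, halved counts, leaving out the 5 libraries under 10 Mcounts, fitting the compared libraries alone, and leaving out each library. The tests were also run on simulated counts with known changes. Those changes were placed only in genes above a minimum mean level, so the run does not bear on calls near 0 counts.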

Additional observations from a re-analysis of the deposited data

Results flagged for a closer look

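The effect of sepsis on Mcpt8 differed between populations, by the test of the difference itself (edgeR quasi-likelihood test over the 4 sepsis effects, adjusted p = 6.72e-06). In Ly6C- GMP its log2 fold change was -4.00 ± 0.38. It was -0.72 ± 0.36 in proNeu1, while proNeu2 gave 0.23 ± 0.35 and preNeu -0.38 ± 0.41. Mean levels were 47.0 ± 30.5 CPM in septic and 833 ± 212 CPM in control Ly6C- GMP, and 10.8 ± 2.91 CPM in septic and 18.9 ± 2.47 CPM in control proNeu1 (SD, n = 3 each). The control proNeu1 level is thus below that of septic Ly6C- GMP. With each library left out in turn, the adjusted p ran from 3.17e-07 to 9.19e-05.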

How the results depend on the processing

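No paired analysis was possible because the labels give the libraries no replicate numbers shared between groups. No call of the 10 genes changed direction in any alternative. Over all genes of the set, comparisons and alternatives, 1602 values kept their side of the threshold, 97 calls were lost and 27 were gained. In septic against control Ly6C- GMP the number of genes called, 6, was 5 with DESeq2, 8 with halved counts, 9 with only the libraries compared and 6 in every other alternative. It was 6 to 10 in proNeu1 against Ly6C- GMP, 9 to 10 in cMoP against Ly6C- GMP, 3 in TpMo against cMoP, and 3 to 5 for sepsis in proNeu1 and in preNeu. The other counts moved by more than 1.5 times, and the cause was not tested. In proNeu2 against proNeu1 the count of 1 was 0 with DESeq2, with no filter, against a fold change of 1.5, without libraries under 10 Mcounts and with only the libraries compared, 2 with halved counts, and 0 to 1 with each library left out. In preNeu against proNeu2 the count of 1 was 0 with DESeq2, with no filter, against a fold change of 1.5 and with only the libraries compared, 3 without libraries under 10 Mcounts, and 0 to 4 with each library left out. In Ly6Chi monocytes against TpMo the count of 4 was 1 with no filter, against a fold change of 1.5 and with only the libraries compared, 2 without libraries under 10 Mcounts, and 1 to 3 with each library left out. For sepsis in proNeu2 the count of 5 was 3 with DESeq2, with no filter, against a fold change of 1.5 and with only the libraries compared, and 3 to 5 with each library left out. In septic proNeu1 against septic Ly6C- GMP the count of 8 was 5 to 7 with each library left out, where the 234 calls over all genes became 109 to 224. The count of 1 gene whose sepsis effects differ between populations was 1 to 2 with each library left out.

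Over all genes, the test against a fold change of 1.5 called fewer by its construction: 868 against 3223 for sepsis in Ly6C- GMP, 397 against 1100 for proNeu1 over Ly6C- GMP and 1201 against 3126 for cMoP over Ly6C- GMP. It called 107 against 555 for proNeu2 over proNeu1, 2473 against 5060 for preNeu over proNeu2, 1254 against 3290 for TpMo over cMoP, 1719 against 3802 for Ly6Chi monocytes over TpMo, 661 against 2839, 802 against 3097 and 517 against 2145 for sepsis in proNeu1, proNeu2 and preNeu, and 55 against 234 for septic proNeu1 over septic Ly6C- GMP. DESeq2 called 1119 genes for proNeu2 over proNeu1, 462 for septic proNeu1 over septic Ly6C- GMP and 2081 for the difference between populations, against 1154 with edgeR. With only the libraries compared, 337, 1282 and 475 genes were called for proNeu2 over proNeu1, sepsis in preNeu and septic proNeu1 over septic Ly6C- GMP; without libraries under 10 Mcounts, 1807 were called for sepsis in proNeu1. Depth limits Fcer1a, Gzmb, Cyp11a1, Slc22a3 and Slc45a3 outside Ly6C- GMP, where whole groups held few or no counts.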

Other observations

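In both GMP groups, most of the 10 genes shared their highest and their lowest library. In septic Ly6C- GMP, replicate 1 was the highest library for 9 of the 10 genes and replicate 3 the lowest for 7. In control Ly6C- GMP, replicate 1 was likewise the highest for 9 and replicate 3 the lowest for 7; the replicate numbers follow accession order and do not pair the groups. The summed share of the 10 genes was 0.120, 0.0563 and 0.0426% of counts in the 3 septic libraries and 1.29, 1.00 and 0.902% in the 3 control libraries. This order was counted for the 10 genes only and not over all genes, so it cannot be read as particular to them. What the libraries with more of these transcripts have in common was not tested.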
